A study of Rattus norvegicus with 8 samples.

Results

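The genes described here are 9 transcription factors of the interferon regulatory factor (IRF) and signal transducer and activator of transcription (STAT) families, *Irf1*, *Irf3*, *Irf7*, *Irf8*, *Irf9*, *Stat2*, *Stat5a*, *Stat5b* and *Stat6*. They were chosen by name, but with earlier results of these data known, and are 9 of the 15159 genes that could be named on the array. The study asked which hypothalamic genes respond to all-*trans* retinoic acid (RA), a vitamin A derivative that acts through nuclear receptors, in rats whose body weight follows the photoperiod. Male F344 rats (F344N in the labels) held in short days (SD) were injected with 5 μl of RA or vehicle into the third ventricle and killed 24 hrs later, and RNA from hypothalamic blocks that include the arcuate nuclei was hybridised to 2-colour arrays. The labels give 1e-05 M RA and saline as the vehicle, whereas the study's methods give a higher RA concentration for these rats and a vehicle that also held DMSO, so the dose is uncertain. Every rat, vehicle rats included, carried a cannula that had been tested with angiotensin. There were 4 RA-injected and 4 vehicle-injected rats and 8 arrays, 4 with RA in Cy5 (arrays 1, 3, 6 and 8) and 4 with RA in Cy3 (arrays 2, 4, 5 and 7). Each rat was therefore measured more than once, and which arrays share RNA is not given in the sources used here. Some genes had like values on arrays 1 and 2, on 3 and 4, on 5 and 8 and on 6 and 7, each with both dye orders, such as *Mx1*, an antiviral gene chosen after its values were seen, with log2 ratios of RA over vehicle of 0.38 and 0.41, 0.96 and 0.93, 2.02 and 2.08, and 0.076 and -0.051. Among the 24 possible pairings of the arrays over the dye orders, these pairs had the highest correlation within pairs (0.36, next 0.28). If these arrays hold the same rats, their agreement is 1 observation and not a repeat in other rats. Whether they do was not tested, and no pairs were set from this likeness. The age of the rats was not stated either.

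IRFs and STATs carry signals from the cell surface and from sensors of foreign nucleic acid to the genome. IRF3 and IRF7 are activated when such sensors fire and switch on type I interferon genes. Type I interferon receptors then activate STAT2, which joins IRF9 in a complex that binds the interferon-stimulated response element (ISRE) of antiviral genes. STAT dimers bind a different element, the gamma-activated sequence (GAS). *Irf1* is induced by interferon gamma and activates antigen presentation genes. IRF8 is a lineage factor of microglia and other myeloid cells. STAT5A and STAT5B answer growth hormone, prolactin and several cytokines, and STAT6 answers interleukins 4 and 13. In the brain these factors are best known from microglia and astrocytes. STATs, IRF3 and IRF7 are switched on by phosphorylation, which RNA arrays do not measure.

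The promoter stretches of 4 genes are shown because *Irf1*, *Irf7*, *Irf9* and *Stat2* stood highest on the same 2 arrays, as described further on. Each is the 250 bases before the RefSeq transcription start in build GRCr8, written 5′ to 3′ in the direction of the gene, with capitals marking a match to GAS (TTCNNNGAA) or ISRE (GAAANNGAAA or its reverse complement). They lie at chr10:38417685-38417934, plus strand (*Irf1*), chr1:205800024-205800273, minus strand (*Irf7*), chr15:33065586-33065835, plus strand (*Irf9*) and chr7:1286840-1287089, plus strand (*Stat2*).
Irf1: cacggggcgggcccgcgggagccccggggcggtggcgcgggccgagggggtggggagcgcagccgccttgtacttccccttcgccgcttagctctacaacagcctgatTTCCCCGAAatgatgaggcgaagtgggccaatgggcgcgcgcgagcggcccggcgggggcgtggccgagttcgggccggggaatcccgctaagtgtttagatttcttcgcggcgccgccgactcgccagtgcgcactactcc
Irf7: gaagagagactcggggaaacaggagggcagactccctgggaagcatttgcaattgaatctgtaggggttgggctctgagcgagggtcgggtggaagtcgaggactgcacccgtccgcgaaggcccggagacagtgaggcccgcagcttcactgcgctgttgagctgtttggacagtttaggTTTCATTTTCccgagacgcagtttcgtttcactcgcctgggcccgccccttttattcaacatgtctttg
Irf9: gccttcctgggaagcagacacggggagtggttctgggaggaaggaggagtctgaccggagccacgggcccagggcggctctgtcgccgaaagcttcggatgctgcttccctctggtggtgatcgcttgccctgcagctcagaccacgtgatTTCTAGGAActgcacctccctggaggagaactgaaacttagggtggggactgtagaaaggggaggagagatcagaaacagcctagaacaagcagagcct
Stat2: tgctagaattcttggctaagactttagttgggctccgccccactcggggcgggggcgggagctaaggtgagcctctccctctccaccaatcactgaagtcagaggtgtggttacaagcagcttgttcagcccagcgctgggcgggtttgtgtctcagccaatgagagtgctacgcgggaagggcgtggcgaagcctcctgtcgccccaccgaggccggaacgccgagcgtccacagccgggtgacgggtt
The *Irf1* stretch held 1 GAS match, TTCCCCGAA, which began 142 bases before the start. In *Irf7* 1 ISRE match was found on the opposite strand, read here as TTTCATTTTC, 69 bases before the start. *Irf9* held 1 GAS match, TTCTAGGAA, at 99 bases before the start, and *Stat2* held neither. Among the other 5 genes only *Irf8* had a match, 2 of GAS, TTCTCGGAA at 180 and TTCAGAGAA at 161 bases before the start. Of all 33469 rat promoter windows of 300 bases (250 before to 50 after the start, both strands searched), 8.87% held GAS and 3.92% held ISRE. A direct repeat of the retinoid receptor type (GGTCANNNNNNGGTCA or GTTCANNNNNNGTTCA) was in 0.493% of all windows and in none of the 9. No GAS and ISRE matches overlapped in the 9 genes. A match is only a run of letters, and binding was not measured.

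Ratios are given as log2 of RA over vehicle for each array, the fold change is the mean over the 8 arrays, and the standard error (SE) is over 4 pair means, each of 1 array of either dye order. Since the true pairs are unknown, limma was fitted in all 24 possible pairings and the largest p was kept, so that p means the unadjusted value from limma unless it is called adjusted. The SE is also limma's, which borrows variance from all probes. It comes from the pairing that gave the kept p, which can differ between genes. A gene was called changed at the study's own threshold, an unadjusted p under 0.01, and the Benjamini-Hochberg value over all 30367 probes is given beside it as adjusted p. No probe of the array reached an adjusted p under 0.05 (lowest 0.222), while 3292 had an unadjusted p under 0.05 and 988 a p under 0.01. An exact sign-flip permutation test on 4 pair means cannot give a two-sided p under 1 in 8, so it cannot pass a threshold here. Nothing in the labels says that the rats of a group were handled separately.

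Certain arrays stood apart from the rest. *Agrp*, an appetite neuropeptide of the arcuate nucleus, was at -1.11 and -1.04 on arrays 5 and 8 and near 0 on the other 6. *Ttr*, the main secreted protein of the choroid plexus, was at -4.48 and -5.11 on arrays 6 and 7 and above 0 on the others. The arrays also lay in 2 rows of 1 slide, arrays 1 to 4 and arrays 5 to 8, with both dye orders in each row. As it is not given which arrays share RNA, differences between rows and between rats cannot be told apart. Values without arrays 5 and 8, without arrays 6 and 7, or within a slide row are therefore given where they alter a result. Fits with arrays left out have fewer pair means, so a call can be lost from that alone. A fit within a row has only 2 arrays of each dye order, so its p leans on the variance that limma borrows from all probes. A call kept or lost within a row is therefore a description. Markers of neutrophils, lymphocytes and myeloid cells were also read, and their values are given beside *Irf8* and the target lists. Median log2 fold changes of other marker lists were -0.12 (astrocytes, 1 of 10 called higher and 1 lower), -0.17 (oligodendrocytes, 1 of 10 lower) and -0.13 (neurons, 2 of 9 lower). They were -0.0082 for endothelial cells, 0.0044 for tanycytes and ependymal cells, -0.21 for choroid plexus and -0.028 for hypothalamic neurons. Of all named genes 4.31% were called, and the part of these cells was not tested.

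Of the 9 members, 3 (33.3%) rose at the threshold, *Irf3*, *Irf9* and *Stat2*, and none fell. Of all named genes 4.31% were called, 3.52% higher and 0.792% lower. As the members were chosen with earlier results known, such shares are a description only. At an unadjusted p under 0.05 it was 5 of 9 members, with *Irf1* and *Stat5a* added, against 13.1% of all named genes (8.48% higher). All 9 fold changes were above 0, against 47.7% of named genes, and their median log2 fold change was 0.19 against -0.0046 over all. Levels of RA and vehicle channels overlapped between the groups for each of the 9, so no member was separated completely. Every RA level lay above every vehicle level in 0.264% of named genes.

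**Figure D1:**
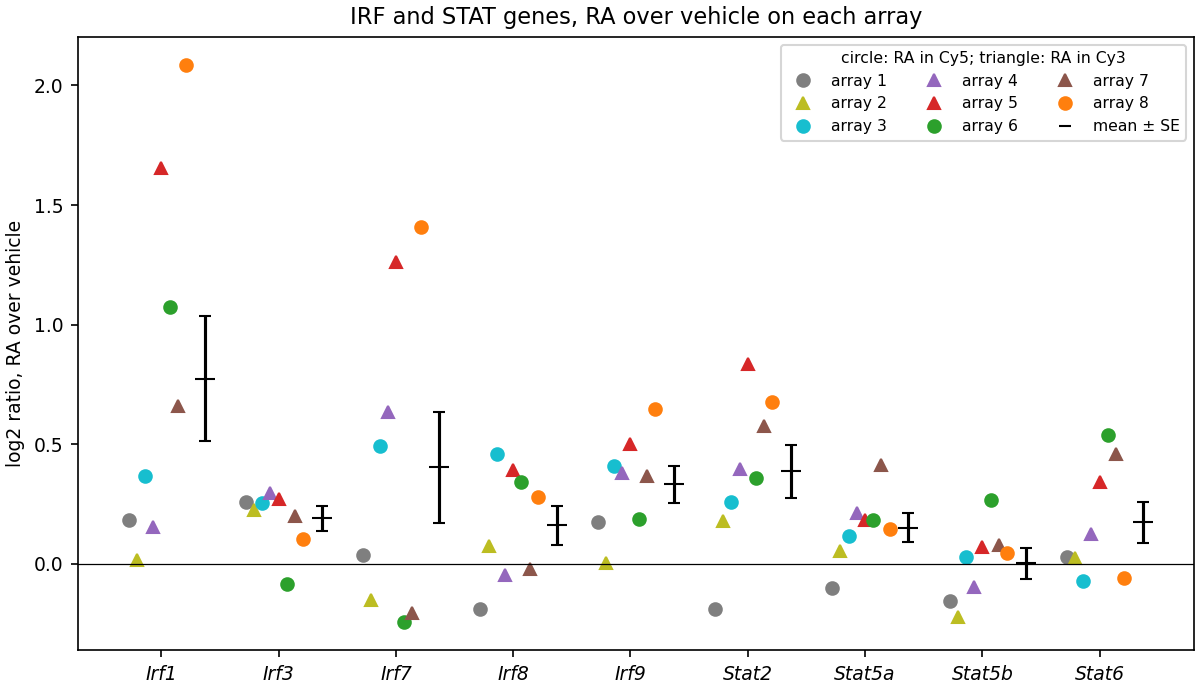
Log2 ratio of RA over vehicle (vertical axis) for the 9 genes on each of the 8 arrays, with circles for RA in Cy5, triangles for RA in Cy3 and 1 colour for each array; the black bar is the mean with its SE. *Irf1* and *Irf7* spread most, with arrays 5 and 8 highest (1.66 and 2.09 for *Irf1*), while *Irf3* lies between 0.10 and 0.30 apart from array 6 (-0.086) and *Irf9* runs from 0.00072 to 0.64.

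*Irf9*, the DNA-binding subunit of the interferon-activated STAT complex, had the lowest p of the members. Its log2 ratios on arrays 1 to 8 were, in order, 0.17, 0.00072, 0.41, 0.38, 0.50, 0.19, 0.37 and 0.64. All 8 were above 0, though array 2 only just, and 4.08% of named genes were above 0 on all 8 arrays. The mean was 0.33 (SE 0.078, n = 4 pair means), a 1.26-fold increase (p of 0.00346, adjusted p = 0.268). As the largest p of the 24 pairings is kept, a called gene is by construction under 0.01 in each. The log2 level was 8.12 ± 0.22 in RA channels and 7.78 ± 0.18 in vehicle channels (SD, n = 8 arrays). Without arrays 5 and 8 the log2 fold change was 0.25 and no longer passed (p of 0.0119), and without arrays 6 and 7 it was 0.35 (p of 0.00833). The call was also lost within slide row 1 (0.24, p of 0.0165) and kept within row 2 (0.42, p of 0.00461).

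*Stat2*, the partner of IRF9 in that complex, had a log2 ratio of -0.19 on array 1 and of 0.18, 0.26, 0.40, 0.84, 0.36, 0.58 and 0.68 on arrays 2 to 8. Array 1 was the only one below 0, and arrays 5 and 8 were the highest. It rose 1.31-fold (log2 0.39, SE 0.11, p of 0.00928, adjusted p = 0.305). The log2 level was 11.29 ± 0.40 in RA channels and 10.90 ± 0.14 in vehicle channels (SD, n = 8 arrays), so RA channels were the more spread. The mean log2 ratio was 0.16 in slide row 1 and 0.61 in row 2, a difference of 0.45 (p of 0.0215, adjusted p = 0.577). The call was lost without arrays 5 and 8 (0.26, p of 0.0281), without arrays 6 and 7 (0.36, p of 0.0334) and within slide row 1 (p of 0.0903), and it was kept within row 2 (p of 0.000652).

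*Irf3*, the constitutively present factor that starts the type I interferon response, rose by the smallest amount of the 3. Its values ran 0.26, 0.22, 0.25, 0.30, 0.27, -0.086, 0.20 and 0.10 over arrays 1 to 8. Array 6 was below 0 and the remaining 7 were above it. The fold change was 1.14 (log2 0.19, SE 0.053, p of 0.00814, adjusted p = 0.297). Unlike *Irf9* and *Stat2*, *Irf3* was not higher on arrays 5 and 8, and its mean was 0.26 in row 1 and 0.12 in row 2 (difference -0.13, p of 0.209, adjusted p = 0.810). Without arrays 5 and 8 it was not called (p of 0.0258), although the log2 fold change stayed at 0.19, and within row 2 it was not called either (p of 0.191). It was called without arrays 6 and 7 (0.23, p of 0.00304) and within row 1 (0.26, p of 0.00347).

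*Irf1*, an early target of interferon gamma, had the largest mean ratio of the 9 but was not called. Values on arrays 1 to 4 were 0.18, 0.015, 0.37 and 0.15, and on arrays 5 to 8 they were 1.66, 1.07, 0.66 and 2.09. Every array of row 2 thus lay above every array of row 1, and all 8 were above 0. The mean log2 fold change was 0.77 (SE 0.26), or 1.71-fold (p of 0.0212, adjusted p = 0.363). The limma p was under 0.01 in 18 of 24 pairings, of which at most 1 is the true one. In the pairing with the fewest calls (4.57% of all named genes) it was 0.0200. In that with the most calls (12.5%) it was 2.9e-05. Row means were 0.18 (1.13-fold) and 1.37 (2.58-fold), a difference of 1.19 (p of 0.00590, adjusted p = 0.371), which was not past an adjusted threshold. Within row 2 alone *Irf1* passed (p of 0.000583), and within row 1 it did not (p of 0.0319), each fit having 2 arrays of each dye order. It also passed with slide row as a block (p of 6.0e-05), a fit that takes the 8 arrays as separate samples although rats are shared, and that called 12.4% of all named genes. On array 5 the vehicle channel was the lowest of all (log2 level 8.96), and on array 8 the RA channel was the highest (12.36). Without arrays 5 and 8 the log2 fold change was 0.41 (p of 0.0275). A second, dimmer *Irf1* probe gave 0.30 (SE 0.19, p of 0.165), with -0.43 and -0.23 on arrays 2 and 4 and 1.25 on array 8, so the probes differ in size and on 2 arrays in sign.

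*Irf7*, the inducible amplifier of the type I interferon response, was the most divided. It stood at 1.26 and 1.41 on arrays 5 and 8, at 0.49 and 0.63 on arrays 3 and 4, at 0.036 and -0.15 on arrays 1 and 2, and at -0.25 and -0.21 on arrays 6 and 7. Both dye orders occur at each of these levels. The mean of 0.40 (SE 0.23, 1.32-fold) was not past the threshold (p of 0.123, adjusted p = 0.605). Leaving out arrays 5 and 8 gave 0.092 (p of 0.536) and leaving out arrays 6 and 7 gave 0.61 (p of 0.0361), so the mean rests on which arrays enter it.

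*Irf8*, the myeloid lineage factor, was near the detection limit, with its probe well above background on 5 arrays in the RA channel and 2 in the vehicle channel. Ratios were -0.19, 0.075, 0.46, -0.048, 0.39, 0.34, -0.021 and 0.28 on arrays 1 to 8, with 5 above 0. The mean was 0.16 (SE 0.082, p of 0.0859, adjusted p = 0.538). Fewer cells of a type and less RNA per cell cannot be told apart in tissue blocks, and this holds for all genes here. Among the microglial markers, 2 of 12 rose (*Aif1*, 0.88, and *Itgam*, 0.87) and *Tmem119*, a marker of resident microglia, fell by 0.52. Only 4 of the 12 had a fold change above 0, and the median log2 fold change was -0.062. Their summed log2 level was 14.4 to 15.1 in RA and 14.2 to 14.8 in vehicle channels. Of 9 markers of monocytes and perivascular macrophages 3 rose, *Plac8* (2.03), *Lyz2* (1.30) and *Lyve1* (0.34), with a sum of 13.3 to 15.5 in RA and 12.7 to 13.6 in vehicle, while *Ccr2*, which defines recruited monocytes, was well above background on 1 array in RA and on none in vehicle. Their part in the result was not tested.

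The remaining 3 STAT genes did not pass the threshold. *Stat5a* had ratios of -0.10, 0.052, 0.11, 0.21, 0.18, 0.18, 0.41 and 0.15, so that only array 1 was below 0. Its mean was 0.15 (SE 0.061, 1.11-fold, p of 0.0412, adjusted p = 0.435). *Stat5b*, a closely related gene that is also on chromosome 10, was at -0.15, -0.22, 0.026, -0.098, 0.068, 0.27, 0.080 and 0.045. These values lie on both sides of 0 and their mean was 0.0013 (SE 0.065, p of 0.984, adjusted p = 0.997). The sign of this mean was not settled, being -0.11 in row 1 and 0.11 in row 2, and -0.074 from the scanner's own ratios and -0.010 after scale normalisation. *Stat6*, the interleukin 4 and 13 factor, was at 0.028, 0.025, -0.073 and 0.13 on arrays 1 to 4 and at 0.34, 0.54, 0.46 and -0.061 on arrays 5 to 8. Arrays 5, 6 and 7 were the highest and array 8 was not with them. Its mean of 0.17 (SE 0.085) was not past the threshold (p of 0.0798, adjusted p = 0.528).

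**Figure D2:**
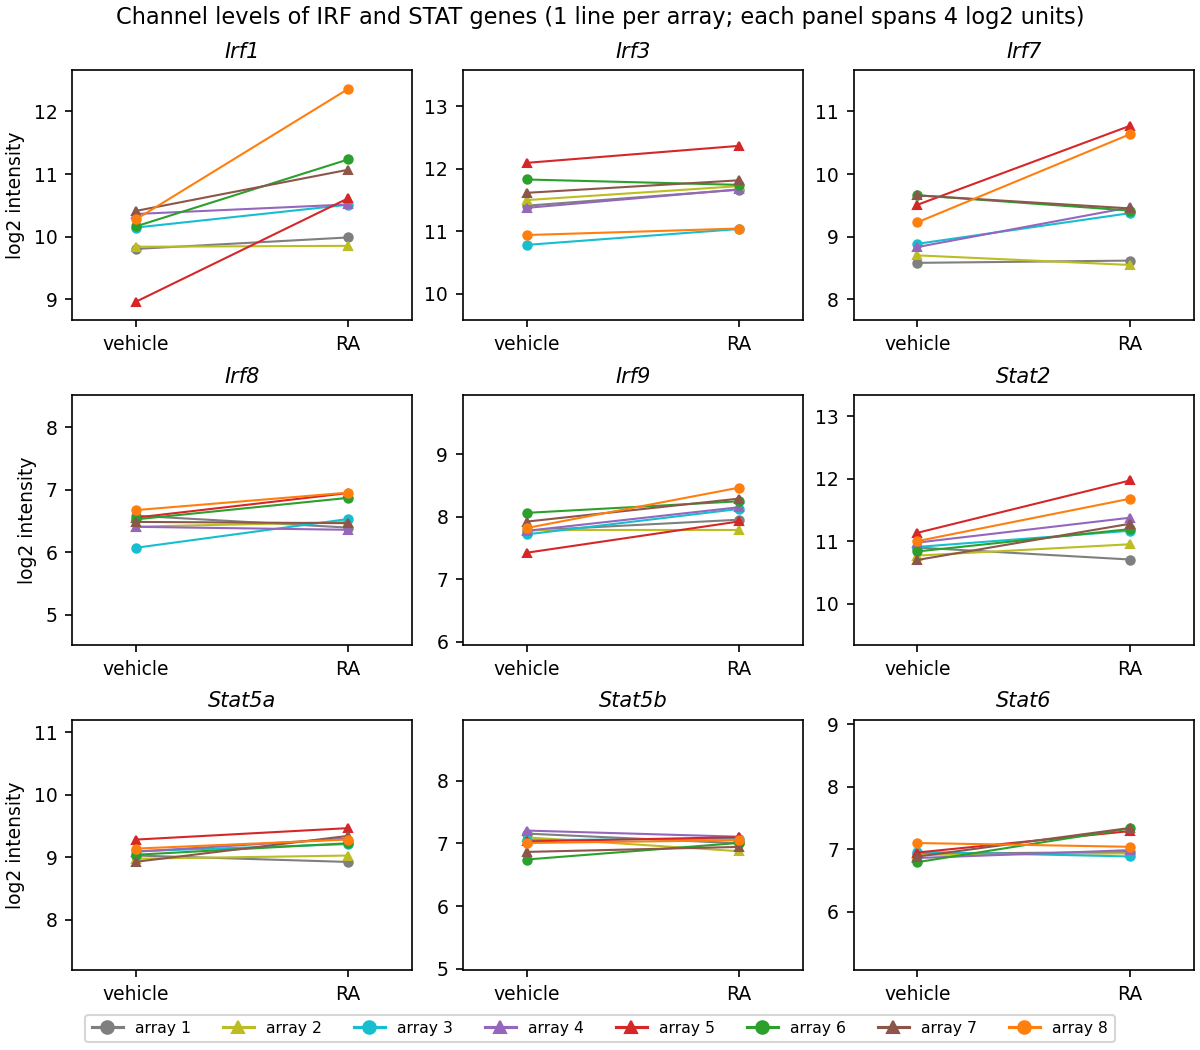
Log2 channel intensity (vertical axis, 4 log2 units in each panel) in the vehicle and RA channels of the 9 genes, with 1 line for each array; levels of different genes cannot be compared. The lines of *Irf1* and *Irf7* rise most on arrays 5 and 8, those of *Irf3* run nearly parallel between 10.78 and 12.37, and those of *Stat5b* cross.

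By mean log2 ratio the order was *Irf1*, *Irf7*, *Stat2*, *Irf9*, *Irf3*, *Stat6*, *Irf8*, *Stat5a* and *Stat5b*. Neighbours in this order had overlapping ranges of mean ± SE except at 2 steps, from *Irf9* to *Irf3* and from *Stat5a* to *Stat5b*, and the differences between members were not tested. Of the 9, 4 were highest on array 5 or 8 (*Irf1*, *Irf7*, *Irf9* and *Stat2*), 3 on array 6 or 7 (*Stat5a*, *Stat5b* and *Stat6*) and 2 on arrays 1 to 4 (*Irf3* and *Irf8*). In row 2 the mean was higher for 8 of 9, the exception being *Irf3*. The dye orders differed by at most 0.31 (*Irf1*, adjusted p = 0.820).

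Of 8 other genes examined, from the IRF and STAT families and the IRF2-binding proteins, 2 rose and none fell. *Stat3*, the factor of interleukin 6 and leptin signalling, rose 1.42-fold (log2 0.51, SE 0.096, p of 0.00106), with all 8 arrays between 0.20 and 0.94. *Irf5*, a myeloid factor, rose 1.36-fold (0.44, SE 0.11, p of 0.00405), but was not called without arrays 5 and 8 (0.35) nor without arrays 6 and 7 (0.36), with a p of 0.0187 in both. *Stat3* passed in both cases (p of 0.00597 and 0.00166), so that 1 of the 8 was then called, against 2.12% and 2.54% of all named genes. *Irf2bpl*, a relative of an IRF2-binding protein, was at 0.11 (SE 0.050, p of 0.0613).

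Upstream of the members, 3 of 14 ligand genes measured were well above background in RA or in vehicle on all 8 arrays. A change in the others could have been missed. *Ifnb1* and *Ifng* were not well above background on any array in either channel, and *Ifna4* was at -0.025 (p of 0.624). Of 14 ligands measured 1 rose, *Csf1*, the macrophage growth factor (0.36, SE 0.091, p of 0.00495), and *Il34*, which shares its receptor, was at -0.023 (p of 0.716). Of 16 receptor genes 3 rose, *Csf2ra* (0.42), *Il10rb* (0.38) and *Ifngr1* (0.26), the last being the ligand-binding chain for interferon gamma. Of 13 kinases and adaptors 4 rose, with *Ikbke*, a kinase that activates IRF3 and IRF7, at 0.47, *Myd88*, the adaptor of Toll-like receptors, at 0.61, and *Jak3* at 0.85. Of 15 inhibitors 3 rose, all tyrosine phosphatases, *Ptpn6* (1.01), *Ptpn1* (0.56) and *Ptpn2* (0.25), and the SOCS genes did not pass. Without arrays 5 and 8 or without arrays 6 and 7 no receptor gene was called. These fits have fewer pair means and called 2.12% and 2.54% of all named genes, against 4.31% with all arrays. Kinases and adaptors went from 4 called to 1 without arrays 5 and 8, where *Ikbke* alone passed (*Jak3* p of 0.0126, *Myd88* p of 0.0148), and to 2 without arrays 6 and 7, where *Ikbke* and *Myd88* passed (*Jak3* p of 0.0130). Inhibitors went from 3 to 2 without arrays 5 and 8, with *Ptpn2* lost (p of 0.0125), and to 4 without arrays 6 and 7. *Csf1* passed without arrays 5 and 8 (p of 0.00945) but not without arrays 6 and 7 (p of 0.0109).

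Genes that the members are known to activate were read in 3 lists, and differences between the lists were not tested. Of 28 measured targets of STAT2, IRF9 and IRF7, 7 rose and none fell, with a median log2 fold change of 0.32. *Bst2*, which tethers budding viruses, rose 1.96-fold (0.97, SE 0.11, p of 2.2e-05), and *Ifitm3* (0.82) and *Ifi35* (0.35) also rose. Of 20 targets and partners of IRF8 and PU.1, 8 rose, with a median of 0.42, led by *Fcgr1a*, an immunoglobulin receptor (1.11), *Aif1* and *Itgam*. Both *Aif1* and *Itgam* are also the microglial markers that rose, so they are not separate observations. Of 22 targets of STAT5 and STAT6 only *Ccnd1*, a cyclin, rose (0.52), with a median of 0.0089, while *Socs3* was at 0.24 (p of 0.0598) and *Pparg* at -0.13 (p of 0.0647). These lists are textbook groupings, and other factors also act on these genes. In all, 29 of 131 measured genes of these pathway lists were called higher and none lower, against the 3.52% and 0.792% given for all named genes. The lists too were chosen with earlier results known.

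**Figure D3:**
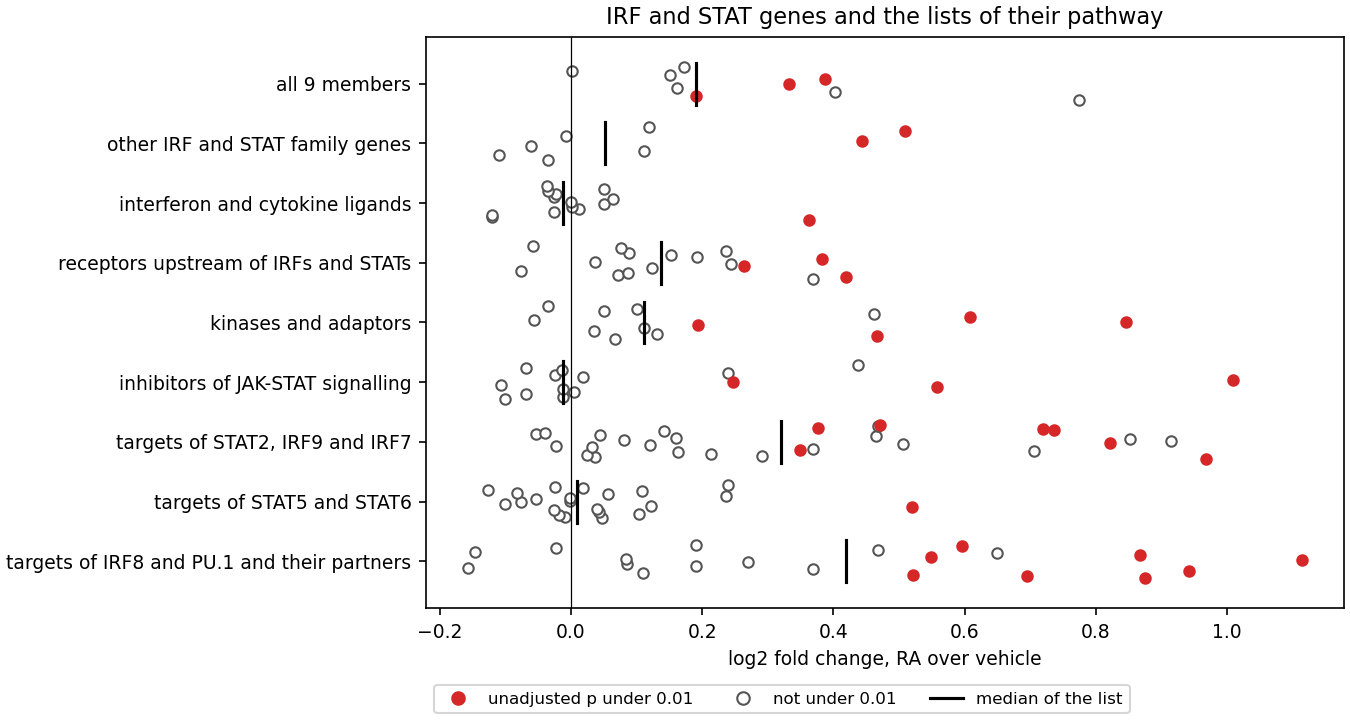
Log2 fold change of RA over vehicle (horizontal axis) for each measured gene of the 9 members and of the pathway lists, filled where the unadjusted p was under 0.01, with a black line at each list's median. Medians are highest for the targets and partners of IRF8 and PU.1 (0.42) and lie near 0 for the targets of STAT5 and STAT6 (0.0089) and for the ligands (-0.011).

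These counts moved with the arrays that stood apart. Without arrays 5 and 8, 7 targets of STAT2, IRF9 and IRF7 were called and 4 of IRF8 and PU.1, against 2.12% of all named genes. Without arrays 6 and 7 the counts were 11 and 4, against 2.54%. The median of the STAT2, IRF9 and IRF7 targets was 0.62 on array 5 and -0.019 on array 7. Markers of monocytes and perivascular macrophages had medians of -0.00081 and 0.35 on these arrays, those of neutrophils 0.030 and 0.39 and those of lymphocytes 0.36 and 0.26. The summed log2 level of the monocyte and macrophage markers was 15.25 in RA and 13.26 in vehicle on array 5. On array 7 it was 15.50 and 13.61. On array 8 their median was 0.19 and the sums were 14.97 and 13.11. Of 9 neutrophil markers *S100a9* (1.25) and *Csf3r* (0.42) rose, with summed levels of 9.79 to 11.2 in RA and 9.64 to 9.96 in vehicle, and *Elane* and *Mmp8* were well above background on no array. Of 11 lymphocyte markers none was called and 6 had an unadjusted p under 0.05, the T cell genes *Cd3g* (0.70) and *Cd8a* (0.75) among them, with sums of 10.2 to 10.9 and 10.2 to 10.3. Only 1 of the 11 lymphocyte markers was well above background in RA or in vehicle on all 8 arrays. Their part in the result was not tested.

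The list medians were also uneven over arrays. For the targets of STAT2, IRF9 and IRF7 the median was 0.62 and 0.77 on arrays 5 and 8, 0.33 and 0.29 on arrays 3 and 4, 0.13 and 0.083 on arrays 1 and 2, and 0.11 and -0.019 on arrays 6 and 7. *Irf7* was likewise highest on arrays 5 and 8 and next highest on arrays 3 and 4. *Mx1* and *Isg15*, antiviral genes picked after their values were seen, were at 2.02 and 1.75 on array 5 and at -0.051 and -0.086 on array 7, with means of 0.85 (p of 0.0201) and 0.91 (p of 0.0138). The median of the STAT5 and STAT6 targets stayed between -0.041 and 0.048 on all 8.

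**Figure D4:**
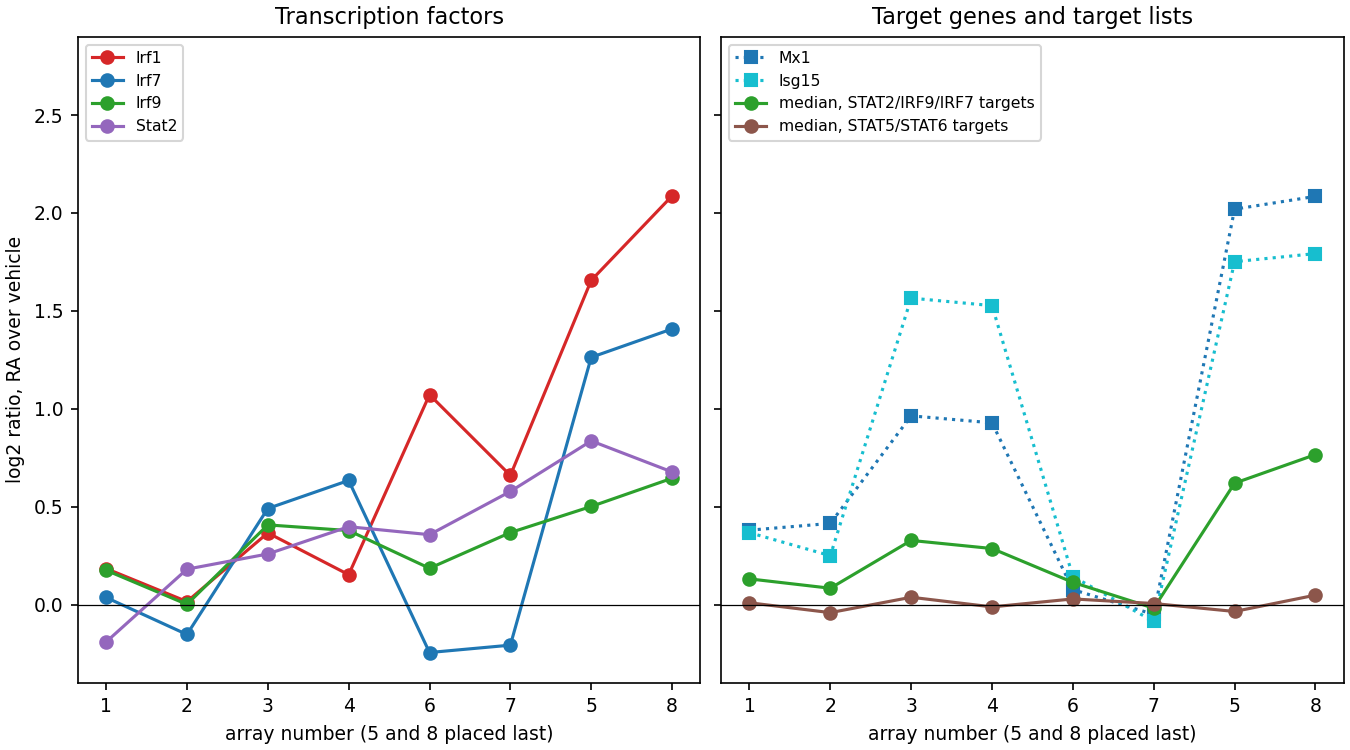
Log2 ratio of RA over vehicle (vertical axis) by array number, with arrays 5 and 8 placed last, for *Irf1*, *Irf7*, *Irf9* and *Stat2* (left) and for *Mx1*, *Isg15* and the medians of 2 target lists (right); lines only join points of 1 gene or list. *Irf7*, *Mx1* and *Isg15* are high on arrays 5 and 8, intermediate on arrays 3 and 4 and near or below 0 on array 7, and the STAT5 and STAT6 target median stays near 0.

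For the 3 members that rose, the genes with the most similar ratios were found among 9461 genes well above background in both channels on all 8 arrays, by the mean absolute difference in log2 ratio over the 8 arrays. *Irf9* was closest to *Csf1* (0.066), *Fgf2* (0.081) and *Snrpa* (0.090). The nearest to *Stat2* were *Parp1* (0.077), *Pabpc1* (0.081) and *Psme2* (0.086), and to *Irf3* they were *Wsb1* (0.064), *Oxsm* (0.074) and *Ap5m1* (0.074). Among the members themselves *Irf9* and *Stat2* differed by 0.18 on average, and *Stat5a* and *Stat6*, the closest, by 0.15. The arrays shared by these genes also share their rats and dyes, so likeness is a description only.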

How the data were processed

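Gene expression in hypothalamic blocks was measured on 8 rat Agilent arrays, each with 1 RA and 1 vehicle sample. Per the file headers, the deposited scanner files hold median spot and background intensities on a linear scale and the log10 ratio of red over green made by the scanner software. The authors also deposited a table of loess-normalised log2 ratios, whose columns correlated with the uncorrected loess ratios at 0.985 to 1.00 and ran as RA over vehicle, with column medians of -0.0030 to 0.013. This table and the log10 ratios served as alternatives.

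Here, background was corrected by normexp (offset 50) on all spots, control and outlier spots were left out, loess was applied within arrays, spots of a probe were averaged and ratios were turned to RA over vehicle. Channel levels were taken after quantile scaling of average intensities. Limma (version 3.58.1, R 4.3.3) was fitted to 30367 probes as the report describes. Probes were named by accession through RefSeq (GRCr8), and 18006 had a gene. Each of 15159 genes was read from its brightest probe. The fit was tested on simulated data. One gene that a list held, and a list that rests on it, are not reported here. The number of arrays limits the precision, and 57.4% to 74.6% of probes were well above background in RA channels.

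The members and lists were chosen with earlier results of these data known. Named were all 9 members, from each pathway list up to 3 genes of lowest p among those well above background in RA or in vehicle on all 8 arrays, the 3 genes most like each member with p under 0.01, and defining markers. Of 35 alternatives, covering background, scaling, pairing, dye, slide row, probe choice and arrays left out, the closing section gives the effect. Counts in the lists without certain arrays, and the differences between dye orders and slide rows, were added after seeing the data.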

Additional observations from a re-analysis of the deposited data

Results flagged for a closer look

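*Stat6* on array 6 lay far from the other arrays with RA in Cy5. Its log2 ratio there was 0.54, against -0.073 to 0.028 on arrays 1, 3 and 8, and the mean of these arrays was 0.11 with array 6 and -0.035 without it. Array 6 is also 1 of the 2 arrays on which *Ttr* was far below 0. It was the only such value in 18 groups of 4 arrays. Chance flags about 1 group in 20, so a single flagged value is near what chance gives.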

How the results depend on the processing

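The 9 log2 fold changes kept their sign in all 35 alternatives, except that of *Stat5b*, which was negative from the scanner's log ratio (-0.074), after scale normalisation (-0.010), with RA in Cy3 only (-0.043), within slide row 1 (-0.11) and in some of the 16 fits that left out 1 array of each dye order (range -0.056 to 0.064). *Irf8* had a value in 34 of them. Several alternatives could not move a fold change, such as the other pairings, the dye and block fits and the variance trend. Quantile scaling of intensities left the p unchanged as well. For these settings a kept sign was fixed in advance. The number of members called, 3 of 9, was 0 with plain background subtraction (1.17% of all named genes called) and 0 with the scanner's log ratio (1.42%), where the members' median log2 fold change rose from 0.19 to 0.40 and 0.36. It was 1 with RA in Cy5 only (8.02%) and 1 within slide row 1 (2.94%), and it was 5 in the pairing with the most calls (12.5% of all named genes) and 5 with slide row as a block (12.4%). With arrays left out it ranged from 0 to 3, being 0 without arrays 3 and 4, 3 and 5, 3 and 7, 8 and 4 or 8 and 5, and 1 without 8 and 7. *Irf9* was called in 27 of the 35 alternatives, *Irf3* and *Stat2* in 19 each, *Irf1* in 7, *Irf8* and *Stat5a* in 2 each and *Irf7*, *Stat5b* and *Stat6* in none. The cause of these shifts was not tested. Values of dim genes such as *Irf8* are limited by signal over background.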
